A study of Mus musculus with 4 samples.

Results

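MicroRNA genes, small nucleolar RNA (snoRNA) genes, other named small RNA genes and the long genes that host them were followed through gene lists from single-cell RNA sequencing of the fetal mouse pancreas. They were chosen by symbol: Mir or Mirlet followed by a number, Snora or Snord, Scarna, Snhg, and Rnu, Rny or Rn7s. Of the 29652 genes in at least 1 of the 3 complete lists, 277 matched, and these were 24 host genes and 253 small RNA genes. The annotation holds 1381 genes with such symbols, and Snhg4, which was listed, is not among them. The study has 4 libraries, 1 for each genotype at each age, made from cells labelled for the epithelial surface protein EpCAM and purified by flow cytometry, all of C57BL/6 strain. The WT groups, from E13.5 and from E15.5, carried Setd2 f/f without a recombinase. Those called KO, at the same ages, were PdxcreSetd2 f/f, with a Cre recombinase driven from Pdx, a gene of the early pancreatic and duodenal epithelium, so that all 4 groups share the floxed allele and only cells with a history of Pdx activity can lose it. Setd2 encodes the methyltransferase that places the third methyl group on lysine 36 of histone H3 along transcribed genes. How many embryos each library pooled is not given in the sources used here.

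A microRNA is cut from a hairpin in a longer transcript by Drosha and Dicer1, and the mature strand guides an Argonaute protein to messenger RNAs that pair with its seed, bases 2 to 8. SnoRNAs guide chemical modification of ribosomal RNA: those of the C/D class direct methylation of the ribose and those of the H/ACA class direct pseudouridylation, while scaRNAs do the same for spliceosomal RNAs in Cajal bodies. In mammals most snoRNAs are released from introns of a host gene after splicing, and many microRNAs also lie in host genes, so that 1 primary transcript can give both a spliced RNA and a small RNA. In the pancreas, miR-375 and the miR-7 family are abundant in endocrine cells and the miR-200 family is known for keeping epithelial identity. Mature microRNAs are too short and lack the poly(A) tail that common single-cell methods capture, so a listed microRNA gene cannot be read as a measure of its mature strand.

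The data give no expression level. Each deposited file is a list of gene identifiers and symbols, and the measure is whether a gene was listed. The complete lists hold 25463 genes for the WT library of E13.5, 26341 for the KO library of E13.5 and 25474 for the KO library of E15.5, which cover 45.8%, 47.4% and 45.8% of annotated genes. Sets of 3 values below keep this order. The E15.5 WT list breaks off after 167 complete lines, a stretch that covers 0 of the annotated genes with these symbols, so nothing could be compared between genotypes at E15.5. With 1 library per group no difference has a replicate check or a test, and the depth is unknown. Setd2 was listed in all 3 complete lists, and a listing cannot show whether the floxed part was lost. All 14 epithelial and pancreatic marker genes were listed in each complete list. So were the 3 mesenchymal and the 3 blood markers. In a list, fewer cells of a type and less RNA per cell cannot be told apart.

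Some microRNA families in which several listed genes share a seed are shown first, because their members differed in where they were listed. Mature sequences are from RefSeq on GRCm38.p6, capitals mark the seed, and each name is followed by its gene. The miR-7 family, the miR-130 and miR-301 family, the let-7 family, the miR-15 family and the miR-26 family follow in that order.
miR-7a-5p (Mir7-1 and Mir7-2): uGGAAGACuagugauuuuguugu
miR-7b-5p (Mir7b): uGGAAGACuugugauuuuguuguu
miR-130a-3p (Mir130a): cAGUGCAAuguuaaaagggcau
miR-130b-3p (Mir130b): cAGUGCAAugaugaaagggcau
miR-130c (Mir130c): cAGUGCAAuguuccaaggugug
miR-301a-3p (Mir301): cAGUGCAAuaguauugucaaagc
let-7a-5p (Mirlet7a-1): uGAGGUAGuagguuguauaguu
let-7c-5p (Mirlet7c-1): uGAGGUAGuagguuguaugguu
let-7e-5p (Mirlet7e): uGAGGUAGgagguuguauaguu
let-7f-5p (Mirlet7f-1): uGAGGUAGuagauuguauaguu
miR-15a-5p (Mir15a): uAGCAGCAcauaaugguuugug
miR-15b-5p (Mir15b): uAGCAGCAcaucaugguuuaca
miR-322-5p (Mir322): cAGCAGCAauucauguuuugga
miR-497a-5p (Mir497): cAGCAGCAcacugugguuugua
miR-26a-5p (Mir26a-1): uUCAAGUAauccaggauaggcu
miR-26b-5p (Mir26b): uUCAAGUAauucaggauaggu

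The families shown were picked for their differences: in each, genes with the same seed differed in where they were listed. Other genes with a shared seed had the same listing, such as Mir99a and Mir99b, both in E13.5 WT alone, and Mir30e and Mir384, both in E13.5 KO alone. In the miR-7 family, Mir7-2 was listed in all 3 complete lists, Mir7b in both E13.5 lists and not at E15.5 KO, and Mir7-1 in E13.5 WT alone. Mir7-1 and Mir7-2 encode the same mature 5′ strand from different chromosomes, so the lists separate their precursors and not the product. Mir130b and Mir130c were in all 3 lists, Mir130a in both KO lists and Mir301 at E15.5 KO alone. None of the 4 listed genes with the let-7 seed was in all 3: Mirlet7a-1 was in both KO lists, Mirlet7f-1 in both E13.5 lists, Mirlet7e in E13.5 WT and E15.5 KO, and Mirlet7c-1 at E15.5 KO alone. In the miR-15 family, whose targets include cell cycle genes, the 4 listed genes were in E13.5 KO, a list that holds 108 of the 193 listed microRNA genes. Mir15b was in both E13.5 lists and Mir322 in both KO lists. Mir15a and Mir497 were at E13.5 KO alone, so they count as listed through that list only. Mir16-1 and Mir16-2, which lie beside Mir15a and Mir15b inside the same genes, were in none. Mir26b, in an intron of Ctdsp1, was in all 3, and Mir26a-1 was in E13.5 WT alone. Across the lists, 176 of the 193 listed microRNA genes had a mature sequence in the source used. Seeds were not compared for every one of them. Among those compared, 35 shared at least 1 of 17 seeds with another listed gene.

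The next sequences show snoRNA genes inside Snhg host genes, because they carry the contrast between near copies and the few that recurred with their host. They are the GENCODE M21 transcripts on GRCm38, given as DNA. Capitals mark the ACA near the 3′ end of H/ACA snoRNAs and, in C/D snoRNAs, the letters TGATGA (box C) and CTGA (box D) where a search of the transcript strand found them.
Snora73a: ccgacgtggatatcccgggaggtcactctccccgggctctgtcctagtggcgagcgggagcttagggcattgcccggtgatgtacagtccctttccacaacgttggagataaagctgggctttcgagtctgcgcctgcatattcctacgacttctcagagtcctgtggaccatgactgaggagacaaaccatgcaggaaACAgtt
Snora73b: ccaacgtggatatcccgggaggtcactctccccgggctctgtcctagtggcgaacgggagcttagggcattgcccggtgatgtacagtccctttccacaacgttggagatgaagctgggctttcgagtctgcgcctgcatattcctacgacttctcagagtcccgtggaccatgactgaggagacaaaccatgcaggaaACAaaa
Snora78: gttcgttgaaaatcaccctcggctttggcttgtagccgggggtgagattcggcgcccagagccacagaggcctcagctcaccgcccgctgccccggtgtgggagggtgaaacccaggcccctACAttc
Snord87: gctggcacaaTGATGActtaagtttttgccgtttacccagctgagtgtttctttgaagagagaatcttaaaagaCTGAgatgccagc

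Snora73a and Snora73b lie 453 bases apart, start to start, on the minus strand of chromosome 4 inside Snhg3, and 198 of their 205 bases are identical (96.6%). Snora73b, at chr4:132352322-132352526 in an intron, was listed in all 3 complete lists. Snora73a, at chr4:132352775-132352979 and overlapping an annotated exon of Snhg3, was in none. How reads that fit both copies were assigned is not given in the sources used here, so the pair is uncertain. Snord87, in an intron of Snhg6 at chr1:9942463-9942549, and Snora78, in an intron of Snhg9 at chr17:24719676-24719803, were each in all 3 lists.

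Host genes were listed almost throughout. All 15 listed Snhg genes, named as snoRNA hosts and mostly annotated as long non-coding, were in all 3 complete lists: Snhg1, Snhg3, Snhg4, Snhg5, Snhg6, Snhg8, Snhg9, Snhg10, Snhg11, Snhg12, Snhg14, Snhg15, Snhg17, Snhg18 and Snhg20. The 10 annotated microRNA hosts with names ending in hg varied more. Mir17hg (host of the miR-17 to miR-92 cluster), Mir22hg, Mir670hg, Mir9-3hg and Mir99ahg were in all 3 lists. Mir142hg, whose microRNA is known from blood cells, was in both E13.5 lists and not at E15.5 KO. Mir155hg, an immune host gene, was at E13.5 KO alone. The hosts of miR-124, a neuronal microRNA, were Mir124a-1hg, in both KO lists, and Mir124-2hg, at E15.5 KO alone. Mir133a-1hg was in none. Of 25 host genes, 21, 23 and 22 were listed (84%, 92% and 88%).

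Of the small RNA genes themselves, 156, 155 and 156 of 1357 were listed (11.5%, 11.4% and 11.5%). Their totals therefore differed by 1 gene between libraries, although the E13.5 KO list is the longest. Of other annotated genes of at most 300 bases, 8.24%, 9.4% and 9.28% were listed. Of small RNA genes by annotated type with other symbols, it was 5.67%, 6.84% and 6.57%. Among microRNA genes, 103, 108 and 104 of 1180 were listed. Among C/D snoRNA genes it was 29, 25 and 30 of 99, and among H/ACA snoRNA genes 11, 9 and 10 of 42. For scaRNA genes it was 3, 3 and 2 of 9, and for the Rnu, Rny and Rn7s genes, which include spliceosomal, U3, Y and 7S RNAs, 10 of 27 in each list.

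Inside the hosts most small RNA genes were not listed, at a share near that of small RNA genes in general: 8 of 55 were in any complete list (14.5%), against 253 of all 1357 (18.6%). The 14 annotated Snhg genes enclosed 35 small RNA genes with these symbols, and 4 were listed in each complete list, 5 in any. The 10 microRNA hosts enclosed 20, of which 2, 1 and 1 were listed, or 3 in any. Scarna13, in Snhg10, was listed in E13.5 WT alone, although Snhg10 was in all 3. Snord123, in Snhg18, was in both KO lists. Mir142 was listed in both E13.5 lists, the same libraries as Mir142hg. Mir99ahg, a gene of 537111 bases, was in all 3 lists, while of its 3 microRNAs Mir99a was in E13.5 WT alone, Mirlet7c-1 at E15.5 KO alone and Mir125b-2 in none. All 6 microRNA genes of Mir17hg overlap its exons and none was listed. Snhg14, the transcript across the imprinted region on chromosome 7 that carries the Snord116 and Snord115 arrays, encloses 208 genes of snoRNA type, 17 of them with symbols used here, and none of the 208 was listed.

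**Figure D1:**
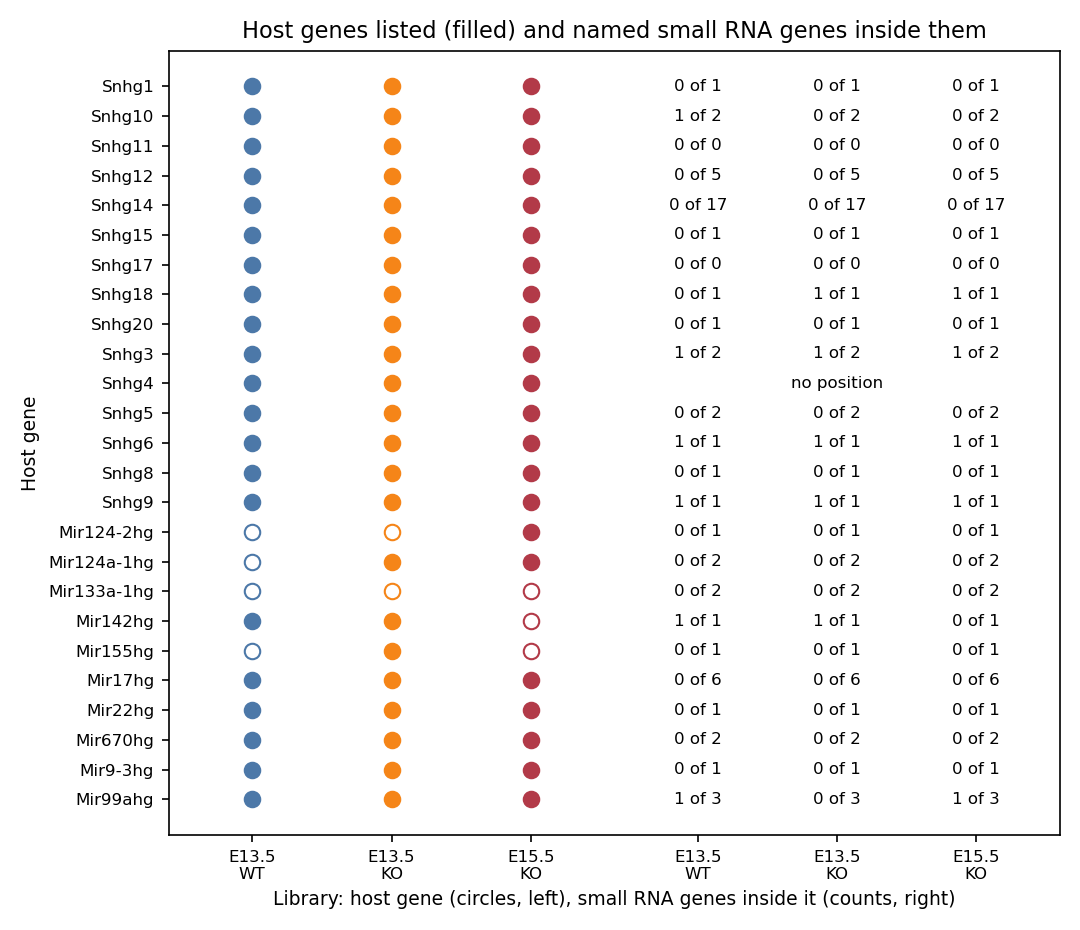
Each row is a host gene, with a filled circle where it was listed and an open circle where it was not, for the 3 complete lists. On the right is the number of its enclosed small RNA genes that were listed, of all with these symbols, and the Snhg rows are filled throughout while most of these numbers are 0.

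The position of a small RNA gene in its host, which the symbols do not use, went with listing. Of snoRNA genes of both classes that overlap an exon of a gene on the same strand, 1 of 65 was listed in any complete list (1.54%), against 39 of 70 in introns (55.7%) and 5 of 6 with no gene around them on the same strand (83.3%). Of the 70 intronic ones, 17 are Snord116 copies inside Snhg14, and without them it was 39 of 53 (73.6%). For microRNA genes, 14 of 251 over an exon were listed (5.58%), 98 of 568 in introns (17.3%) and 81 of 361 with no gene around them on the same strand (22.4%). The order held in each library. In the 3 libraries, 3.19%, 2.79% and 2.39% of exonic microRNA genes were listed, and 8.63%, 8.8% and 8.45% of intronic ones. How the authors' counting assigned reads that lie on 2 genes is not given in the sources used here, and its part in this difference was not tested. Exons came from all annotated transcripts, including those with retained introns. With exons of the basic transcript set alone, an alternative chosen after the data were seen, 0 of 15 exonic snoRNA genes and 40 of 120 intronic ones (33.3%) were listed.

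**Figure D2:**
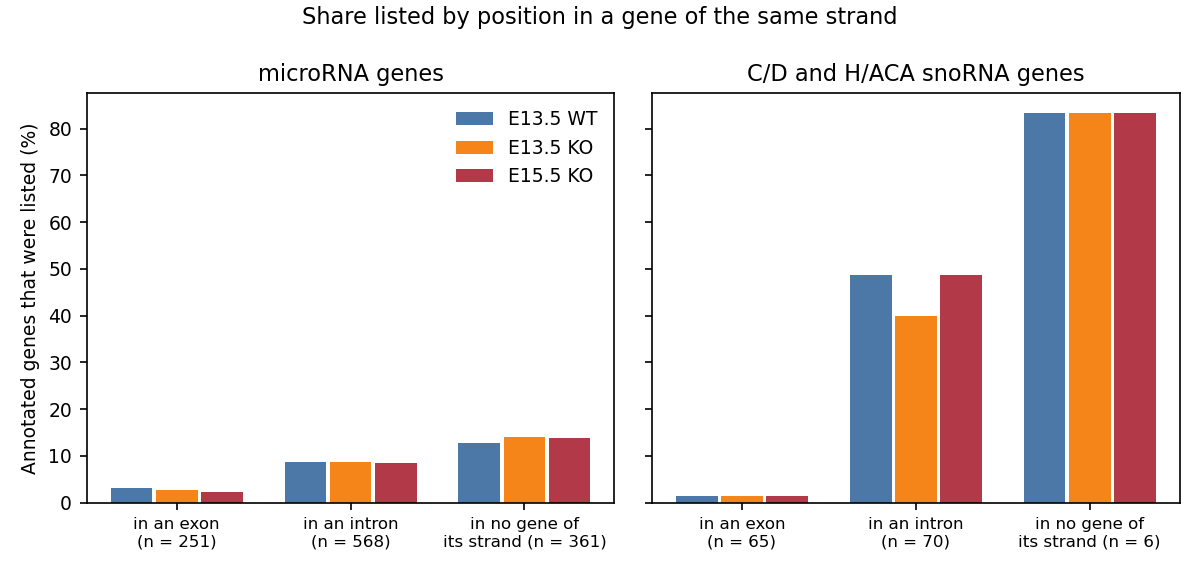
Share of annotated genes listed in each complete list (percent, bars by library), by position relative to genes on the same strand, for microRNA genes on the left and snoRNA genes on the right. Exonic genes have the lowest bars in each library, at most 3.19% for microRNA genes and 1.54% for snoRNA genes.

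The contrast was also seen between neighbours inside 1 gene. Of 37 genes that enclose small RNA genes both over exons and in introns, 17 had intronic ones alone listed in any complete list, 0 had exonic ones alone, 2 had both and 18 neither. Some of the 37 are overlapping annotations that enclose the same small RNA genes, such as Rcc1 and Snhg3 around Snora73b. With each small RNA gene counted once, 24 of 51 intronic and 3 of 48 exonic ones were listed. Rpl13a, which encodes a protein of the large ribosomal subunit, holds Snord32a, Snord34 and Snord35a in introns, all in 3 lists, and Snord33 over an exon, in none. Nop56, a core protein of C/D snoRNA particles, holds Snord110, in all 3, and the exonic Snord57, in none. Gas5, a growth-arrest host transcript, was listed in all 3 while its 4 snoRNA genes and Mir5117, all over exons, were in none. Among microRNA genes, Mir106b in an intron of Mcm7, a subunit of the replicative helicase, was listed at E13.5 KO, and its exonic neighbours Mir25 and Mir93 in none. In Dleu2, Mir15a was at E13.5 KO and the exonic Mir16-1 in none. Mirg and Rpl23a were the genes with both kinds listed, and Rpl23a had the intronic Snord42a and the exonic Snord42b in all 3 lists. Snord42b and Mir3082, in an exon of Stub1, were the 2 exonic genes listed in all 3 of the 15 listed in any.

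Most genes that enclose a small RNA gene were listed, whether or not the small RNA gene was. Of the listed small RNA genes inside another gene, 95 of 97, 90 of 91 and 91 of 92 had that gene listed in the same library (97.9%, 98.9% and 98.9%). Over all 973 enclosed small RNA genes the enclosing gene was listed for 95.9%, 96.5% and 95.5%. In turn, 10.2%, 9.58% and 9.8% of small RNA genes inside a listed gene were themselves listed. Inside a gene that was not listed it was 2 of 40, 1 of 34 and 1 of 44. SnoRNA genes inside ribosomal protein genes were listed in any complete list in 14 of 32 cases, those inside Snhg genes in 4 of 32 and those inside other genes in 22 of 71. Without the 17 Snord116 copies of Snhg14, the Snhg genes held 4 listed of 15 (26.7%).

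Recurrence over the 3 lists differed by class. Of the 277 listed genes, 104 were in all 3 complete lists (37.5%) and 125 in a single list (45.1%), so that 173 were missing from at least 1 list. Over all genes listed in any of them, 25.1% were missing from at least 1, and of those not protein-coding 47.3%. MicroRNA genes stood at the low end, with 44 of 193 in all 3 (22.8%) and 115 in a single list (59.6%). C/D snoRNA genes were in all 3 in 20 of 34 cases (58.8%), H/ACA snoRNA genes in 9 of 11 and host genes in 20 of 24. Among other annotated genes of at most 300 bases, which are of similar length, 37.6% of the 960 listed were in all 3.

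**Figure D3:**
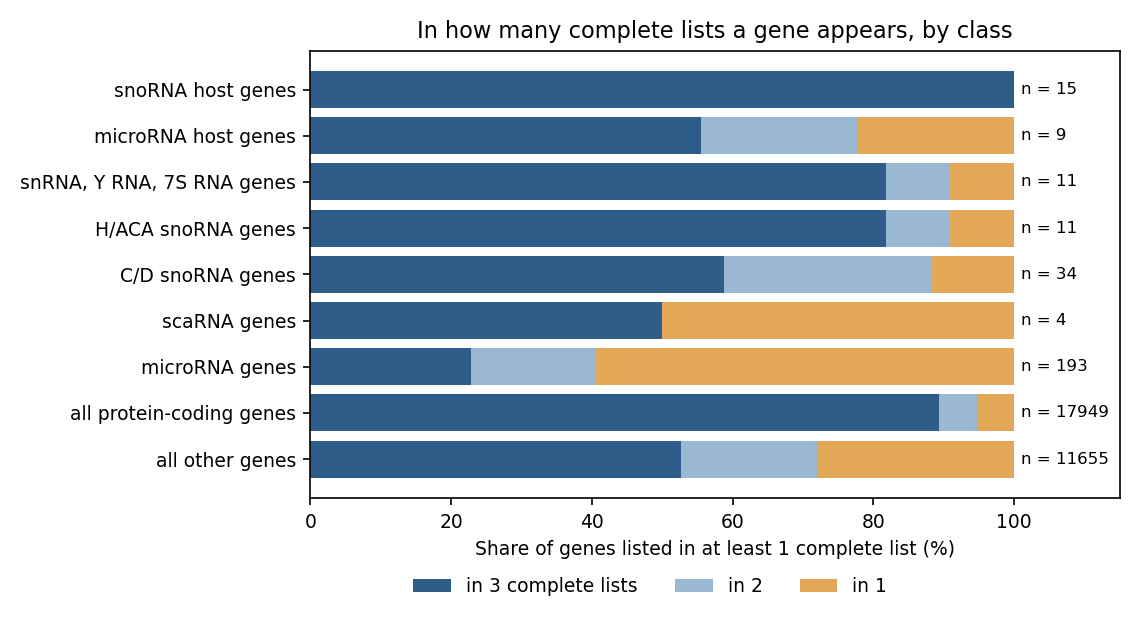
For each class, and for all protein-coding and all other genes, the percent of listed genes found in 3, 2 or 1 of the complete lists, with the number of genes at the right. The microRNA bar has the smallest part in all 3 lists, 22.8%, and the Snhg bar (snoRNA host genes) lies entirely in all 3.

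The recurring C/D snoRNA genes were Snord7, Snord13, Snord32a, Snord34, Snord35a, Snord42a, Snord42b, Snord49a, Snord49b, Snord53, Snord55, Snord58b, Snord65, Snord72, Snord87, Snord91a, Snord92, Snord104, Snord110 and Snord118. Snord118 (U8) and Snord13 (U13) act in ribosomal RNA processing and have genes of their own. The recurring H/ACA genes were Snora17, Snora21, Snora31, Snora41, Snora57, Snora62, Snora69, Snora73b and Snora78. The sequence boxes did not separate listed from other genes in a simple way: TGATGA within 20 bases of the start and CTGA within 20 bases of the end were found in 20 of 34 listed C/D genes (58.8%) and in 48 of 65 that were not listed (73.8%), and in 68 of all 99 (68.7%). ACA in the last 10 bases was found in 11 of 11 listed H/ACA genes and in 29 of the other 31 (93.5%), or 40 of all 42 (95.2%). Of the 4 listed scaRNA genes, Scarna2 and Scarna17 were in all 3 lists, Scarna13 in E13.5 WT and Scarna3a in E13.5 KO. Of the genes for spliceosomal and U3 RNAs, Rnu1a1, Rnu2-10, Rnu5g, Rnu11, Rnu12, Rnu3b1_2 and Rnu3b3 were in all 3, as were the Y RNAs Rny1 and Rny3. Rnu73b, of snoRNA type and inside Rps3a1, was in both E13.5 lists and Rn7s2 at E15.5 KO alone. Several of these have near-identical copies elsewhere in the genome, and their listing is uncertain for that reason.

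The comparison of genotypes at E13.5 asked which genes were listed with or without Setd2 deletion. The 233 genes found in either list split into 122 in both, 56 in KO alone (24%) and 55 in WT alone (23.6%). Over all genes listed in either, 9.72% were in KO alone and 6.61% in WT alone, and over those not protein-coding 20.7% and 12.8%. Over other genes of at most 300 bases it was 28.1% and 18%. The numbers in KO alone and in WT alone were thus near-equal for the genes followed here, while the lists as a whole held more genes in KO alone. Among the 153 microRNA genes listed in either, 50 were in KO alone, 45 in WT alone and 58 in both. In order of number, the first of those in KO alone were Mirlet7a-1, Mir15a, Mir24-2, Mir30e, Mir34b, Mir106b, Mir130a, Mir181a-2, Mir193b and Mir212. The first of those in WT alone were Mir7-1, Mirlet7e, Mir26a-1, Mir31, Mir99a, Mir99b, Mir122, Mir136, Mir142b and Mir146. Host genes in KO alone were Mir155hg and Mir124a-1hg, and none was in WT alone.

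Of 43 C/D and H/ACA snoRNA genes with these symbols in either E13.5 library, 3 were in KO alone and 9 in WT alone. Over all genes of annotated type snoRNA, most of them without such a symbol, the direction was turned, with 32 of 135 in KO alone (23.7%) and 23 in WT alone (17%). Those in KO alone were Snord23, Snord83b and Snord123. Those in WT alone were Snora20, Snora23, Snord4a, Snord59a, Snord61, Snord70, Snord73a, Snord93 and Snord98. Of these 9, 7 were also listed at E15.5 KO, so that 7 snoRNA genes were missing from the E13.5 KO list alone, against 2 missing from E13.5 WT alone and 2 from E15.5 KO alone. Over all genes not protein-coding the order was different, with 481 missing from E13.5 KO alone, 933 from E13.5 WT alone and 832 from E15.5 KO alone. Over all genes of type snoRNA these numbers were 12, 13 and 10, so the surplus of the 7 was not seen there. The 7 lie in introns of 7 genes, Ipo7, Rpl23a, Atp5b, Nop58, Rps3a1, 2700038G22Rik and Ccar1. The E13.5 KO library and the E13.5 WT library are 1 each, and whether the difference goes with the genotype or with the library cannot be told apart.

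Between ages in KO, the 239 genes listed in either library split into 117 in both, 61 at E15.5 alone (25.5%) and 61 at E13.5 alone (25.5%). Over all genes it was 7.37% at E15.5 alone and 10.4% at E13.5 alone, and over those not protein-coding 15.2% and 19.2%. This comparison shares the E13.5 KO library with the one between genotypes. Of 158 microRNA genes, 50 were at E15.5 alone, 54 at E13.5 alone and 54 in both. The first at E15.5 alone were Mirlet7c-1, Mirlet7e, Mir23b, Mir31, Mir132, Mir136, Mir148a, Mir153, Mir193a and Mir194-2. The first at E13.5 alone were Mir7b, Mirlet7f-1, Mir15a, Mir15b, Mir24-2, Mir30e, Mir34b, Mir106b, Mir142 and Mir144. SnoRNA genes were at E15.5 alone in 9 cases (Snora23, Snord4a, Snord37, Snord59a, Snord70, Snord73a, Snord90, Snord93 and Snord98) and at E13.5 alone in 3 (Snord8, Snord17 and Snord83b). Of the 9 at E15.5 alone, 7 are the snoRNA genes given above as missing from the E13.5 KO list alone. Over all genes of annotated type snoRNA, 38 of 150 were at E15.5 alone (25.3%) and 29 at E13.5 alone (19.3%).

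A small set of genes known from blood cells was listed in both E13.5 libraries and not at E15.5 KO. It held Mir142 and Mir142hg, from white blood cells, and Mir144 and Mir451a, from red cell precursors, and it was singled out after the listings were seen. These are not all separate loci. Mir142 lies in an intron of Mir142hg, and Mir144 and Mir451a are close neighbours on the same strand. Related genes had other listings: Mir155hg was at E13.5 KO alone. Mir142b and Mir451b, opposite Mir142 and Mir451a, were in E13.5 WT alone. In total, 14 microRNA genes and 1390 genes of any kind were missing from E15.5 KO alone. The blood markers Hba-a1, Hbb-bt and Ptprc were in all 3 lists, at levels that a list does not give. Of the 3 endothelial markers, Cdh5 was missing at E15.5 KO, and Pecam1 and Kdr were in all 3 lists. The part of blood cells in this difference was not tested.

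Among 40 microRNA loci chosen for pancreas, 39 were found in the annotation under these symbols, and 9, 7 and 8 were listed. The choice also holds Mir122 and miR-124 genes, known mainly from other tissues. Over all 1180 microRNA genes, 103, 108 and 104 were listed (8.73%, 9.15% and 8.81%). Mir375, at chr1:74900658-74900721, Mir7-2, Mir200c and Mir26b were in all 3. For Mir200c, of the epithelial miR-200 family, and for Mir127, an imprinted microRNA taken up next, the mature strands are these, with the seed in capitals.
miR-200c-3p (Mir200c): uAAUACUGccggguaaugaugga
miR-127-3p (Mir127): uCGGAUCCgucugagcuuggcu

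The other listed loci of this choice varied between libraries. Mir7-1, Mir26a-1, Mir182 and Mir122 were in E13.5 WT alone, Mir34b in E13.5 KO alone, and Mir200a, Mir148a (abundant in acinar cells) and Mirlet7c-1 in E15.5 KO alone. Mir7b was in both E13.5 lists and Mirlet7a-1 in both KO lists. Mir122 is known as the liver's main microRNA. The loci in none of the lists included Mir216a, Mir216b and Mir217, which are known from acinar cells, the miR-30 genes Mir30a, Mir30b, Mir30c-1 and Mir30d, Mir21a, Mir141, Mir200b and Mir429, and the 6 genes of Mir17hg. Of the loci over an exon, 2 were listed in any complete list and 12 were not, and of those in introns 6 were and 5 were not.

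The most listed microRNA genes among the regions counted lay in the imprinted Dlk1-Dio3 region of chromosome 12, expressed from the maternal chromosome along with the non-coding genes Meg3, Rian and Mirg, which were in all 3 lists. Between Dlk1 and Dio3, 23 of 61 microRNA genes were listed in any complete list, with 11, 13 and 11 by library. Over all microRNA genes it was 193 of 1180 (16.4%), with 103, 108 and 104 by library (8.73%, 9.15% and 8.81%). Of these 23, 3 were in all 3 lists, 6 in 2 and 14 in a single list. The 3 were Mir337, Mir433 and Mir127, and they lie 44.8, 50.7 and 51.8 kb from the start of Meg3. Mir127 (chr12:109592846-109592915) and Mir433, with Mir431 and Mir136, lie opposite Rtl1, a gene expressed from the paternal chromosome. Mir431 was in both E13.5 lists and Mir136 in E13.5 WT and E15.5 KO. Further along, the 38 genes from Mir379 to Mir3072 held 12 listed genes, 3 in E13.5 WT and 6 in each KO list, none of them in all 3. The neighbouring clusters did not share this order. The 14 genes from Mir770 to Mir136 had 7, 6 and 5 listed by library, and the 3 from Mir341 to Mir370 had 1, 1 and 0.

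**Figure D4:**
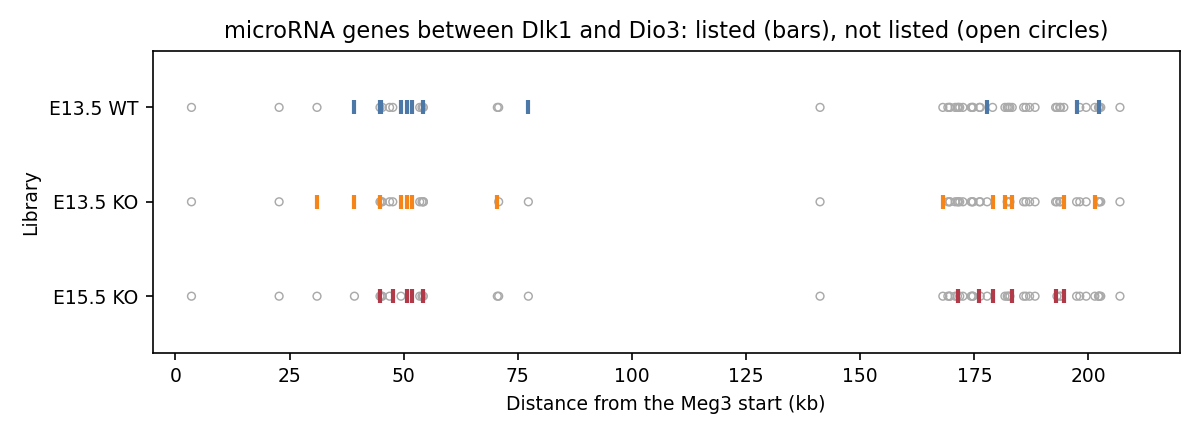
MicroRNA genes between Dlk1 and Dio3 by distance from the start of Meg3 in kb, with a row for each complete list, bars for listed genes and open circles for the others. The 3 genes with a bar in every row lie between 44.8 and 51.8 kb, and Mir1247, at 737.0 kb and in none of the lists, is outside the range drawn.

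Clusters differed widely. With genes on 1 strand at most 10 kb apart counted together, 21 clusters of at least 3 microRNA genes held 212 genes, of which 37 were listed (17.5%), beside 133 of 846 genes without such a neighbour (15.7%). Without the 3 clusters between Dlk1 and Dio3, the other 18 held 14 listed of 157 (8.92%). Of these 157, 71 lie inside Sfmbt2 on chromosome 2, and of them 1 was listed, Mir466b-1, in E13.5 WT. The X chromosome cluster from Mir450b to Mir322 held 4 listed of 7, with Mir351 and Mir503 in all 3 lists. None was listed in the clusters of Mir290a to Mir295 and Mir302b to Mir367, known from pluripotent cells, in the 19 genes from Mir743 to Mir465 or in the 6 from Mir363 to Mir106a.

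The other recurring microRNA genes lie across the genome, and the 44 in all 3 lists were, with those above, Mir103-2, Mir296, Mir320, Mir339, Mir423, Mir684-1, Mir684-2, Mir692-1, Mir703, Mir762, Mir763, Mir1905, Mir1931, Mir1938, Mir3082, Mir3091, Mir3096, Mir3473d, Mir5125, Mir5136, Mir5620, Mir6236, Mir6340, Mir6357, Mir6948, Mir7655, Mir7664, Mir7666, Mir7668, Mir7688, Mir8091, Mir8102 and Mir8116. MicroRNA genes opposite an exon of a gene on the other strand were listed in any complete list in 19 of 53 cases (35.8%), and those opposite an intron in 11 of 70 (15.7%). Whether the counting used the strand is not given in the sources used here, so reads from the opposite gene cannot be told apart from the microRNA gene's own.

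Nearly all genes that make and carry these RNAs were in all 3 lists, as were most genes of any kind. Of protein-coding genes listed in any complete list, 16040 of 17949 were in all 3 (89.4%), and of all listed genes 74.9%. Of 22 symbols of microRNA processing and function, including Drosha, Dgcr8, Dicer1, Xpo5, Ago2 and Lin28b, 20 were in all 3 complete lists. Tut4 and Tut7 were in none under those symbols, and Zcchc11, an older symbol of Tut4, was among the 20. Of 20 symbols of the snoRNA, Cajal body and small RNA proteins, 19 were found and all 19 were in all 3 lists, among them Fbl, the ribose methylase, and Dkc1, the pseudouridine synthase. Of 31 host genes not named for their small RNA, 30 were in all 3 lists. The exception, Dnm3os, host of the miR-199a and miR-214 hairpins, was in both E13.5 lists and not at E15.5 KO.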

How the data were processed

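Single-cell RNA-seq of EpCAM-labelled, sorted fetal mouse pancreas was deposited as 1 list of gene identifiers and symbols per library, with no values. The measure, of no numeric unit (other), is whether the authors' deposited list holds a gene. The submitters' processing notes name Seurat and mm10; no source used here gives the aligner, the counting rule or the rule for listing a gene. Identifiers were matched to GENCODE M21 (GRCm38), 276 of 277 with success. Rnu3b1_2 is Rnu3b1 there. A small RNA gene was enclosed when its whole span lay in a gene on the same strand, and exonic when it overlapped an exon by at least 1 base. Counts and shares were made with Python 3.11.15 and figures with matplotlib 3.10.9. A check on made-up sets covered only set overlap and the symbol rules, not list reading or gene positions. Named were all differing host genes, the genes in all 3 complete lists, the loci chosen for pancreas and, where over 40 small RNA genes differed, the first 10 per class by number. Genes, lists and this rule were chosen with earlier results of these data known. Groups came from the sample titles. Sequences are from RefSeq and GENCODE; positions are 1-based. Some listings are not reported here.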

Additional observations from a re-analysis of the deposited data

How the results depend on the processing

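Each group has 1 library and no counts, so every difference rests on 2 lists and no interval, limit of detection or test is possible. No paired analysis was possible because the titles number no replicates. With members taken by annotated gene type in place of the symbol, 424, 476 and 464 genes were listed in the 3 complete lists. At E13.5 the split was then 184 in KO alone, 132 in WT alone and 292 in both, which is no longer even, and between KO ages 170 at E15.5 alone, 182 at E13.5 alone and 294 in both. With Snhg genes as the only hosts, 100% were listed in each library. Taken over genes listed in at least 1 complete list, small RNA genes were listed in 61.7%, 61.3% and 61.7%. With basic-set exons, an alternative chosen after seeing the data, the snoRNA shares became 0% over exons and 33.3% in introns. Stripping appended numbers, leaving out exonic genes and limiting enclosing genes to coding and long non-coding types moved no count by over 1.5 times.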

Other observations

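Small RNA genes by annotated type whose symbols were not used above (mostly Gm and AC or AL names) also had their lowest share listed over exons. Of 324 over an exon of a gene on the same strand, 13 were listed in any complete list (4.01%), and of 1093 in introns 214 were (19.6%). Of 2938 with no gene around them on the same strand, 237 were listed (8.07%), below the intronic share, which is not the order of the microRNA genes. At E13.5, 128 of these genes were in KO alone and 77 in WT alone, of 375 in either, while the named small RNA genes split 54 and 55.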
